A study of Mus musculus with 11 samples.

Results

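The genes of the cytosolic ribosomal proteins, the protein part of the ribosome, were followed in 4 sorted cell populations of the pubertal mouse mammary gland. They were taken by name: symbols made of Rpl or Rps with a number and an optional suffix, together with Rpsa, Rplp0, Rplp1 and Rplp2, without the Rps6k kinases and without entries that the annotation marks as pseudogenes. By name 86 identifiers matched, of which 2 (Rpl6l and Rps4l) were removed as pseudogenes, which left 84 of the 27179 gene identifiers in the count table. Of these, 52 belong to the large (60S) subunit and 32 to the small (40S) subunit. The filter on low counts was passed by 81 of the 84, all 32 genes of the small subunit and 49 of the large one. The 3 that did not pass were Rpl3l with 0 to 14 counts in a library, Rpl10l with 0 to 2 and Rpl39l with 0 to 21.

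The cells came from C57BL/6 females aged 5 weeks that carry a knock-in of GFP at E-cadherin, an adhesion protein of epithelial cells, and no drug, deletion or other allele distinguished the groups. Terminal end buds (TEBs), the growing tips of the pubertal ducts, were dissected apart from the ducts, and cells negative for lineage markers and positive for CD24 and CD29 were sorted into luminal cells (GFP high) and basal cells (GFP low). RNA-seq was done on 3 libraries each of basal duct, basal TEB and luminal TEB and on 2 of luminal duct (replicates 1 and 3), where the authors discarded 1 sample for low cell numbers. Each replicate was pooled from at least 2 mice, and the p-values below measure the spread between such pools.

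A ribosome holds 1 copy of nearly every ribosomal protein, so that their mRNAs are made in a broadly balanced way, and these mRNAs are among the most abundant of most cells. Their translation is controlled together by mTOR through a run of pyrimidines at the 5′ end of the mRNA, the 5′ TOP motif, which begins with a C. A few of the proteins also act outside the ribosome, among them Rpl5 and Rpl11, which bind the p53 inhibitor Mdm2 when ribosome assembly is disturbed. Several have a paralog that can take their place, such as Rps27l for Rps27.

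A few start sites are shown because a pyrimidine tract there is the sequence feature for which these mRNAs are known, although most genes of the family did not have it at the annotated start. RefSeq promoters of the mm10 build were found for 64 of the 84 genes (76 promoters). A pyrimidine tract, here a C at the annotated start followed by at least 4 further pyrimidines, was present for 14 of the 64 (21.9%), against 3.01% of 27025 genes with a promoter in the same table. When the C was allowed to lie up to 3 bases from the annotated start, 26 genes held it (40.6% against 13.5%). The next 6 sequences are starts with a tract, chosen for genes that the results below return to. Each runs 5′ to 3′ on the strand of the gene, from 20 bases before the start, with the tract in capitals.

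Rpl38, chr11:114668560-114668599, plus strand: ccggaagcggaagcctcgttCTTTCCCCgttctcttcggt
Rpl35, chr2:39005112-39005151, minus strand: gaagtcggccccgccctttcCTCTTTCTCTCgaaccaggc
Rpl15, chr14:18270967-18271006, minus strand: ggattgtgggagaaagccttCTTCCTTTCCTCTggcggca
Rps6, chr4:86857348-86857387, minus strand: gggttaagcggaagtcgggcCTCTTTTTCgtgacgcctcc
Rps27, chr3:90213629-90213668, minus strand: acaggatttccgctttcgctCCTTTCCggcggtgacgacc
Rplp2, chr7:141447631-141447670, plus strand: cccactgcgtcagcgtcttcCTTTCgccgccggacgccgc

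The starts of 3 paralogs are shown in the same window. None had the tract at the annotated start itself, but Rps27l had one beginning 1 base after it and Rpl22l1 one beginning 3 bases after it, both inside the wider rule, while Rpl7l1 had none within 3 bases.

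Rps27l, chr9:66946066-66946105, plus strand: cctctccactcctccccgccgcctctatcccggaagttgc
Rpl22l1, chr3:28805488-28805527, plus strand: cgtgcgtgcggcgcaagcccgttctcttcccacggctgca
Rpl7l1, chr17:46782637-46782676, minus strand: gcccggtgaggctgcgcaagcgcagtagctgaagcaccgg

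In the whole promoter window, from 250 bases before to 50 after the start and on both strands, the letters CGGAAG, the core bound by Ets factors, were found for 42 of the 64 genes (65.6%), against 18.8% of all genes. GGGCGG, bound by Sp1, was found for 39 (60.9% against 38.2%), and CACGTG, the E-box bound by Myc with Max, for 6 (9.38% against 8.09%). These are matches of letters in a window and not measured binding.

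The libraries held 27989137 to 49221436 counts. Genes of the mitochondrial chromosome took 37.5% of the counts in basal TEB replicate 1, 28.5% in luminal duct replicate 3 and 17.8% in basal TEB replicate 3, against 4.34% to 10.9% in the other 8. The basal markers Krt5, Krt14, Trp63, Acta2 and Myh11 summed to 4851 to 16825 counts-per-million (CPM, scaled by TMM) in basal libraries and to 10.3 to 190 in luminal ones, and the 6 luminal markers to 242 to 522 and to 11728 to 18240, as the labels would have it. Of the 5 basal and the 6 luminal markers, none was at 0 in all libraries. The 6 fibroblast markers summed to 176 to 597 CPM in basal libraries, mostly Dcn, and to 5.99 to 135 in luminal ones.

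The ribosomal protein genes together took between 2.10% and 3.74% of all counts. Their share was 2.75%, 2.73% and 2.62% in basal duct (2.70% ± 0.0686, SD, n = 3), 2.10%, 2.57% and 2.84% in basal TEB (2.50% ± 0.375, n = 3), 3.74% and 2.40% in luminal duct (3.07% ± 0.953, n = 2), and 2.66%, 2.69% and 2.52% in luminal TEB (2.62% ± 0.0933, n = 3). The lower of the luminal duct values and the lowest of the basal TEB values came from the 2 libraries with the most mitochondrial counts. As a share of the counts outside mitochondrial genes, both luminal duct libraries (4.09% and 3.35%) lay above the luminal TEB libraries (2.78%, 2.83% and 2.63%), whereas basal TEB (3.35%, 2.70% and 3.45%) and basal duct (2.94%, 3.06% and 2.83%) overlapped.

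**Figure D1:**
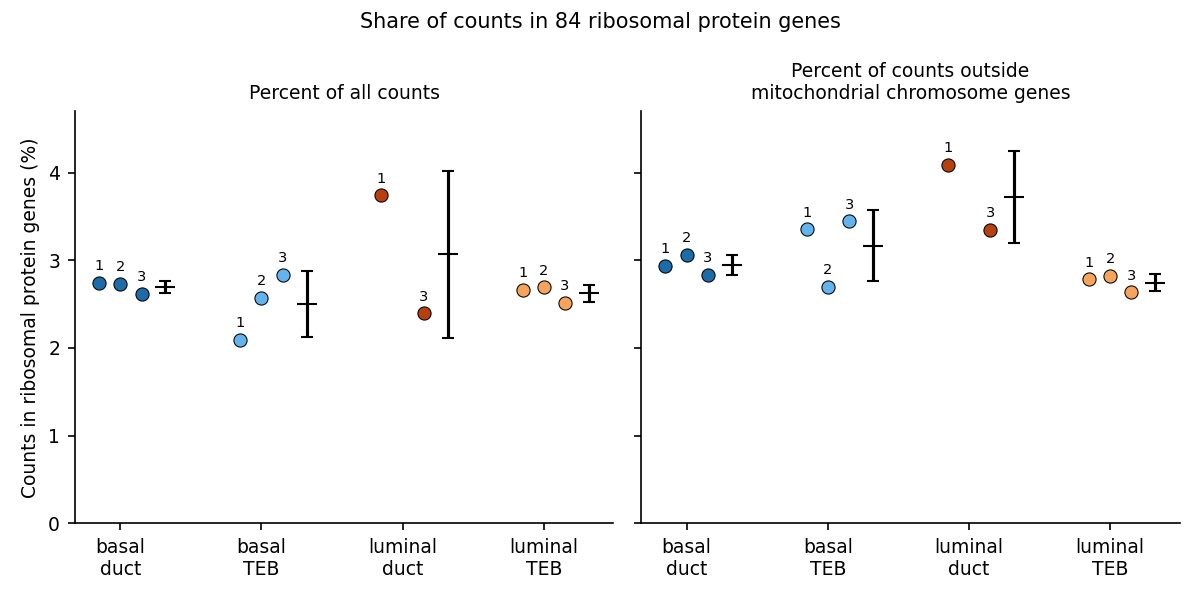
Share of each library's counts in the 84 ribosomal protein genes (%), by group, of all counts on the left and of counts outside mitochondrial genes on the right, with a point for each library, numbered by replicate, and a bar at each group's mean and SD. Outside mitochondrial genes the 2 luminal duct libraries (4.09% and 3.35%) lie above the 3 luminal TEB libraries (2.63% to 2.83%).

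Among the 81 genes tested, levels per kb of the gene length deposited with the counts spanned a ratio of 419. That length ran from 328 to 5136 bases (Rps15a). It need not equal the length of the mRNA present, so levels and ranks per kb depend on the annotation. Levels in this paragraph are CPM per kb, averaged over the 4 group means or given by group. Rplp1 stood highest at 1581, followed by Rps15 at 1575. The lowest were Rpl39 at 3.77, Rpl31 at 31.7 and Rpl7l1 at 32.1. Rplp1, which with Rplp0 and Rplp2 forms the stalk that recruits the elongation factors, stood at 1408 ± 128 in basal duct, 1484 ± 264 in basal TEB, 2042 ± 209 in luminal duct and 1390 ± 58.7 in luminal TEB (SD, n = 3, 3, 2 and 3). The first, second and last of these did not differ beyond their spread, and luminal duct was above them. Rps15 stood at 1637 ± 219, 1629 ± 646, 1971 ± 89.9 and 1062 ± 45.4 in the same order of groups. For Rps15 too, luminal duct had the highest group mean, and luminal TEB the lowest. The median over genes was 455 for the small subunit (n = 32) and 274 for the large one (n = 49).

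**Figure D2:**
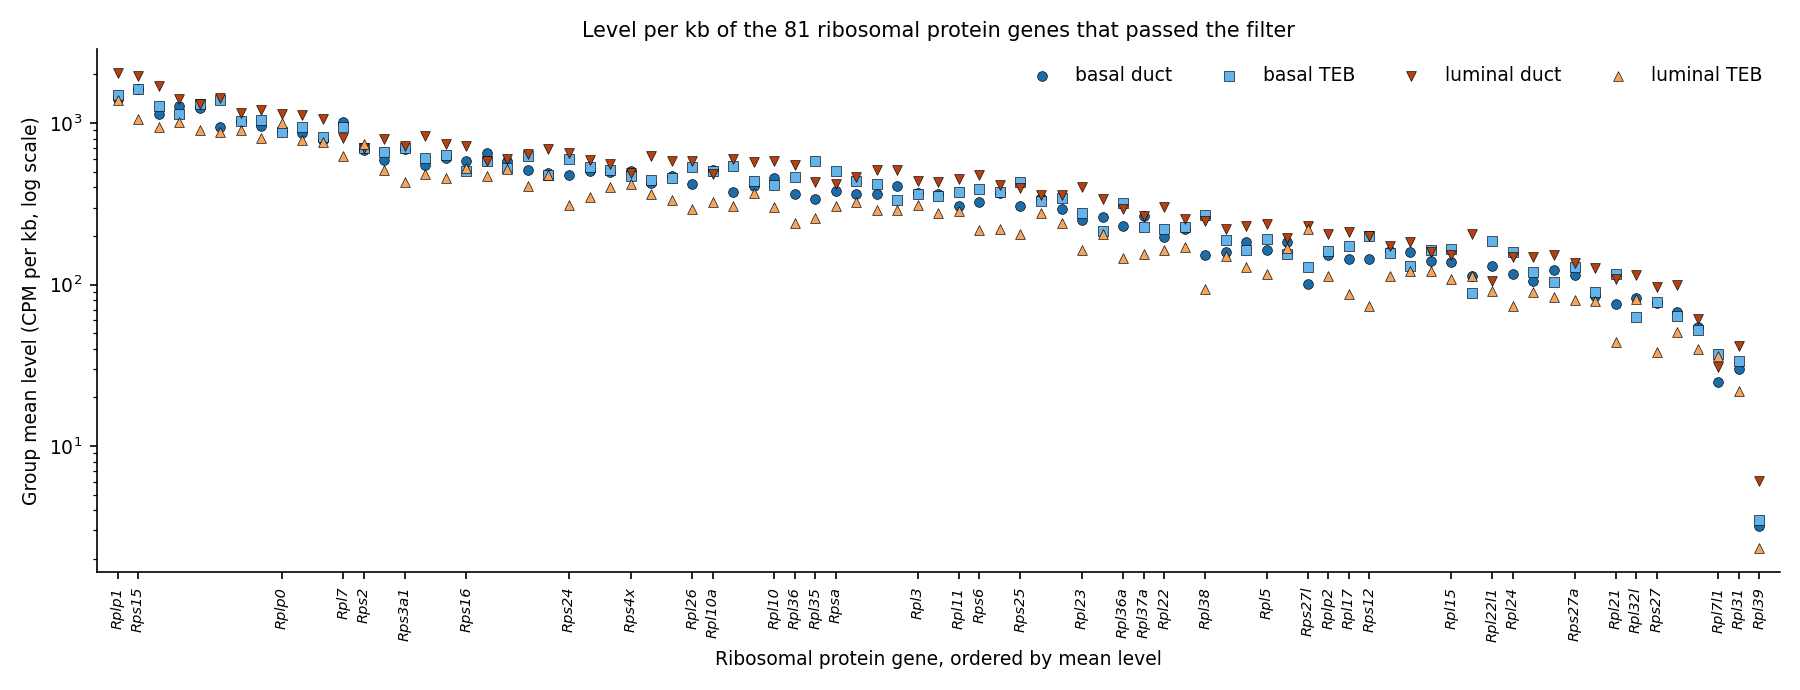
Group mean level (CPM per kb, log scale) of the 81 ribosomal protein genes that passed the filter, ordered by their mean, with a colour for each group and labels for genes described in the text. Levels run from 3.77 for Rpl39 to 1581 for Rplp1.

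How reads were divided among copies of these genes limits the comparison of levels, and its part in the range was not tested. Ribosomal proteins have many processed pseudogenes, and of the 80-base stretches (the read length) of GENCODE transcripts a median of 29.6% for each of 83 genes was also found in transcripts of another gene. More than 50% was shared for 23 genes, and for Rpl21 the stretches occurred in 58 other genes. The count table has 36 entries taken here as ribosomal protein pseudogenes, by -ps in the symbol or by gene type. They held 13.4 to 14.7 counts for every 100 on the 84 genes in each library. Among them Rpl31-ps12 and Rpl34-ps1 carry the gene type of protein-coding genes. For 9 genes most counts lay on same-named copies in every library. The copies held 93.0% to 95.3% of the sum of gene and copies for Rpl31, 90.1% to 93.8% for Rps27 and 81.8% to 86.3% for Rps27a. For Rpl17, Rpl13, Rpl37, Rps13, Rpl34 and Rps12 they held between 53.1% and 89.6%. The levels of such genes are therefore uncertain, and reads of a gene and of its copies cannot be told apart here. Across 80 genes the level per kb and the shared percentage had a Spearman correlation of -0.08, a description over genes measured in the same libraries.

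In luminal cells, ribosomal protein mRNAs were at a lower level in TEBs than in ducts nearly throughout the family, but no single gene passed the threshold. The fitted log2 fold change (TEB minus duct) was below 0 for 79 of 81 genes, with a median of -0.69 (-0.66 for the large and -0.72 for the small subunit), beside a median of 0.04 over all 17370 in the fit. With scaling by total counts only these were -0.32 and 0.42. A gene was called at an FDR (p of the quasi-likelihood test in edgeR, adjusted by Benjamini-Hochberg over all genes) under 0.05. None of the 81 was called in this comparison, 0 where 1.41% of all genes were. At an unadjusted p under 0.05, 59 were lower, against 8.22% of all genes. Other tests at the same FDR called 42 lower by DESeq2 (4.28% of all genes), 25 by edgeR's likelihood ratio test (3.15%) and 8 by limma voom (1.28%). Every luminal TEB library lay below both luminal duct libraries for 69 of the 81 genes, against 17.4% of all genes tested.

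The median log2 CPM of the 81 genes was 8.44 and 8.14 in the luminal duct libraries (8.29 ± 0.209, SD, n = 2) and between 7.61 and 7.66 in the luminal TEB libraries (7.63 ± 0.0218, n = 3). Luminal duct replicate 1 was above all luminal TEB libraries for 80 genes and replicate 3, the library with 28.5% mitochondrial counts, for 69. The share of all genes was not computed for single libraries. The sum of basal markers was 69.4 and 190 CPM in luminal duct and 10.3 to 21.3 in luminal TEB, and that of 6 immune markers, none at 0 in all libraries, 0.455 and 195 against 0.650 to 12.1; their part in the result was not tested. In the basal duct libraries the median log2 CPM of the 81 genes was 7.81 to 8.06. How basal cells among those sorted as luminal would shift the luminal values was not tested. In bulk RNA a change in the kinds of cells and a change in RNA per cell cannot be told apart.

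The lowest FDR in this comparison belonged to Rpl23 and Rpl36, proteins of the large subunit. Rpl23 stood at 441 and 419 CPM in luminal duct and at 175, 171 and 178 CPM in luminal TEB, a log2 fold change of -1.30 ± 0.312 (SE; FDR 0.0678, edgeR). Rpl36 stood at 204 and 244 CPM against 105, 103 and 85.8 CPM (-1.19 ± 0.288, FDR 0.0692, edgeR). For both genes every duct library was over every TEB library by more than the spread within either group. Rpl5 (-1.01 ± 0.264), Rpl11 (-0.64 ± 0.214) and Rpl26 (-0.97 ± 0.342), which like Rpl23 bind Mdm2 or act on p53 mRNA, had an FDR of 0.0833, 0.159 and 0.181 by edgeR. Rpl5 was at 512 and 442 CPM in luminal duct and at 244, 241 and 224 CPM in luminal TEB, again without overlap.

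Within the stalk the 3 proteins had unlike values. Rplp2, whose start is printed above, stood at 90.1 and 91.0 CPM in luminal duct and at 50.6, 49.8 and 49.6 CPM in luminal TEB (-0.86 ± 0.209, FDR 0.0702, edgeR). Rplp1 was at 1025 and 886 CPM against 670, 663 and 619 CPM (-0.55 ± 0.203, FDR 0.200, edgeR). Rplp0, the base of the stalk and a common reference gene in quantitative PCR, was at 1844 and 1243 CPM against 1350, 1427 and 1329 CPM (-0.17 ± 0.215, FDR 0.725, edgeR). For Rplp2 and Rplp1 the groups did not overlap, while for Rplp0 the luminal TEB libraries lay between the 2 duct libraries.

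The 2 genes above 0 in this comparison were Rpl7l1 and Rps2. Rpl7l1, a paralog of Rpl7, was at 94.9 and 65.2 CPM in luminal duct and 103, 88.8 and 88.4 CPM in luminal TEB (0.22 ± 0.208, FDR 0.618, edgeR), and Rps2 had a log2 fold change of 0.09 ± 0.261 (FDR 0.905, edgeR). Rps27l and Rpl22l1 were close to 0 as well, at -0.07 ± 0.298 (FDR 0.940) and -0.22 ± 0.425 (FDR 0.839) by edgeR. Their parent genes were lower in TEBs: Rps27, at 51.5 and 58.8 CPM in luminal duct and 19.0, 25.4 and 21.0 CPM in luminal TEB, had -1.34 ± 0.365 (FDR 0.0957, edgeR), and Rpl22, at 675 and 554 against 334, 341 and 330 CPM, had -0.88 ± 0.222 (FDR 0.0775, edgeR). Neither parent passed the threshold, and the differences between paralog and parent were not tested. Of the other parents, Rpl3, Rpl7, Rpl10 and Rps4x had -0.49, -0.37, -0.93 and -0.23, none called, and Rpl39 was at 0.308 to 3.29 CPM in 10 libraries and at 0 in basal TEB replicate 3, too low to compare.

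As a share of the paralog and parent per kb, Rps27l took 56.3% ± 9.53 in basal duct, 63.7% ± 12.9 in basal TEB, 68.9% ± 11.9 in luminal duct and 85.1% ± 3.58 in luminal TEB (SD, n = 3, 3, 2 and 3). Rpl22l1 took 39.6% ± 2.52, 43.9% ± 12.3, 25.1% ± 7.33 and 35.6% ± 1.51 of its pair in the same order, and Rpl7l1 2.41% ± 0.348, 3.80% ± 0.479, 3.63% ± 0.268 and 5.41% ± 0.444. The shares of Rps27l and Rpl7l1 had their highest group mean in luminal TEB. At least 90.1% of the counts of Rps27 and its copy lay on the copy, so its level in this share is uncertain. The paralogs Rpl3l, Rpl10l and Rpl39l did not pass the filter. Rps4l, which the annotation marks as a transcribed pseudogene and which is no member, was at 29.5 and 8.31 CPM in luminal duct and at 21.2, 27.2 and 26.4 CPM in luminal TEB (0.40, FDR 0.684, edgeR), within the range of the duct libraries.

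**Figure D3:**
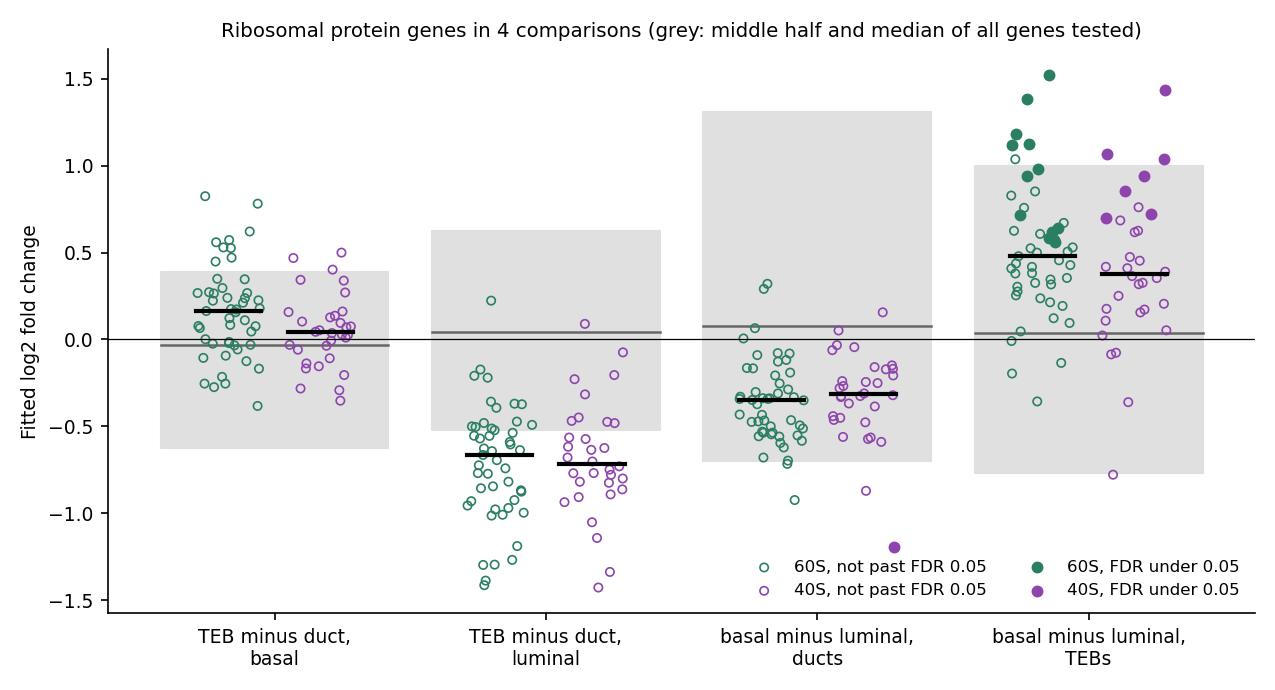
Fitted log2 fold change of each of the 81 ribosomal protein genes in 4 comparisons, coloured by subunit, over the interquartile range and median of all 17370 genes tested in grey. In luminal cells 79 of 81 points lie below 0 (median -0.69), whereas in basal cells they spread around 0 (median 0.08).

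In basal cells no such difference between TEBs and ducts was seen. Of the 81 genes 54 had a log2 fold change above 0 and 27 below, with a median of 0.08 (0.16 for the large and 0.04 for the small subunit; -0.03 over all genes tested; -0.11 for the family when libraries were scaled by total counts only). None was called by edgeR's quasi-likelihood test (1.32% of all genes), and none by DESeq2 (5.03%), the likelihood ratio test (4.07%) or limma voom (3.46%). At an unadjusted p under 0.05 there were 2, against 14.5% of all genes. They were Rpl7l1 (0.57 ± 0.186, FDR 0.189, edgeR) and Rpl35 (0.78 ± 0.332, FDR 0.311, edgeR). Rpl7l1 stood at 59.1, 63.1 and 72.6 CPM in basal duct and at 112, 87.7 and 90.4 CPM in basal TEB, the only one of 81 with every basal TEB library above every basal duct library (8.88% of all genes). Rpl32l and Rps16 were the 2 with every basal TEB library below (11.9% of all genes).

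The basal TEB libraries differed widely from each other. Their median log2 CPM over the 81 genes was 8.42, 7.72 and 8.29 (8.14 ± 0.370, SD, n = 3), against 7.81 to 8.06 in basal duct (7.95 ± 0.132, n = 3), so that basal duct lay inside the range of basal TEB. Replicate 2 of basal TEB, the one with the lowest mitochondrial share of the 3, was the lowest of them for 71 of 81 genes, and replicate 1 the highest for 54. Single genes in basal TEB replicates 1 and 3 also departed more from the family's pattern: after the median of each library was removed, the SD over genes was 0.470 and 0.555 log2 units there and 0.356 in luminal duct replicate 3, against 0.189 to 0.289 in the other 8 libraries. These 3 are the libraries with the highest mitochondrial shares, and the part of that share was not tested. Without basal TEB replicate 1 the basal median was -0.03.

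**Figure D4:**
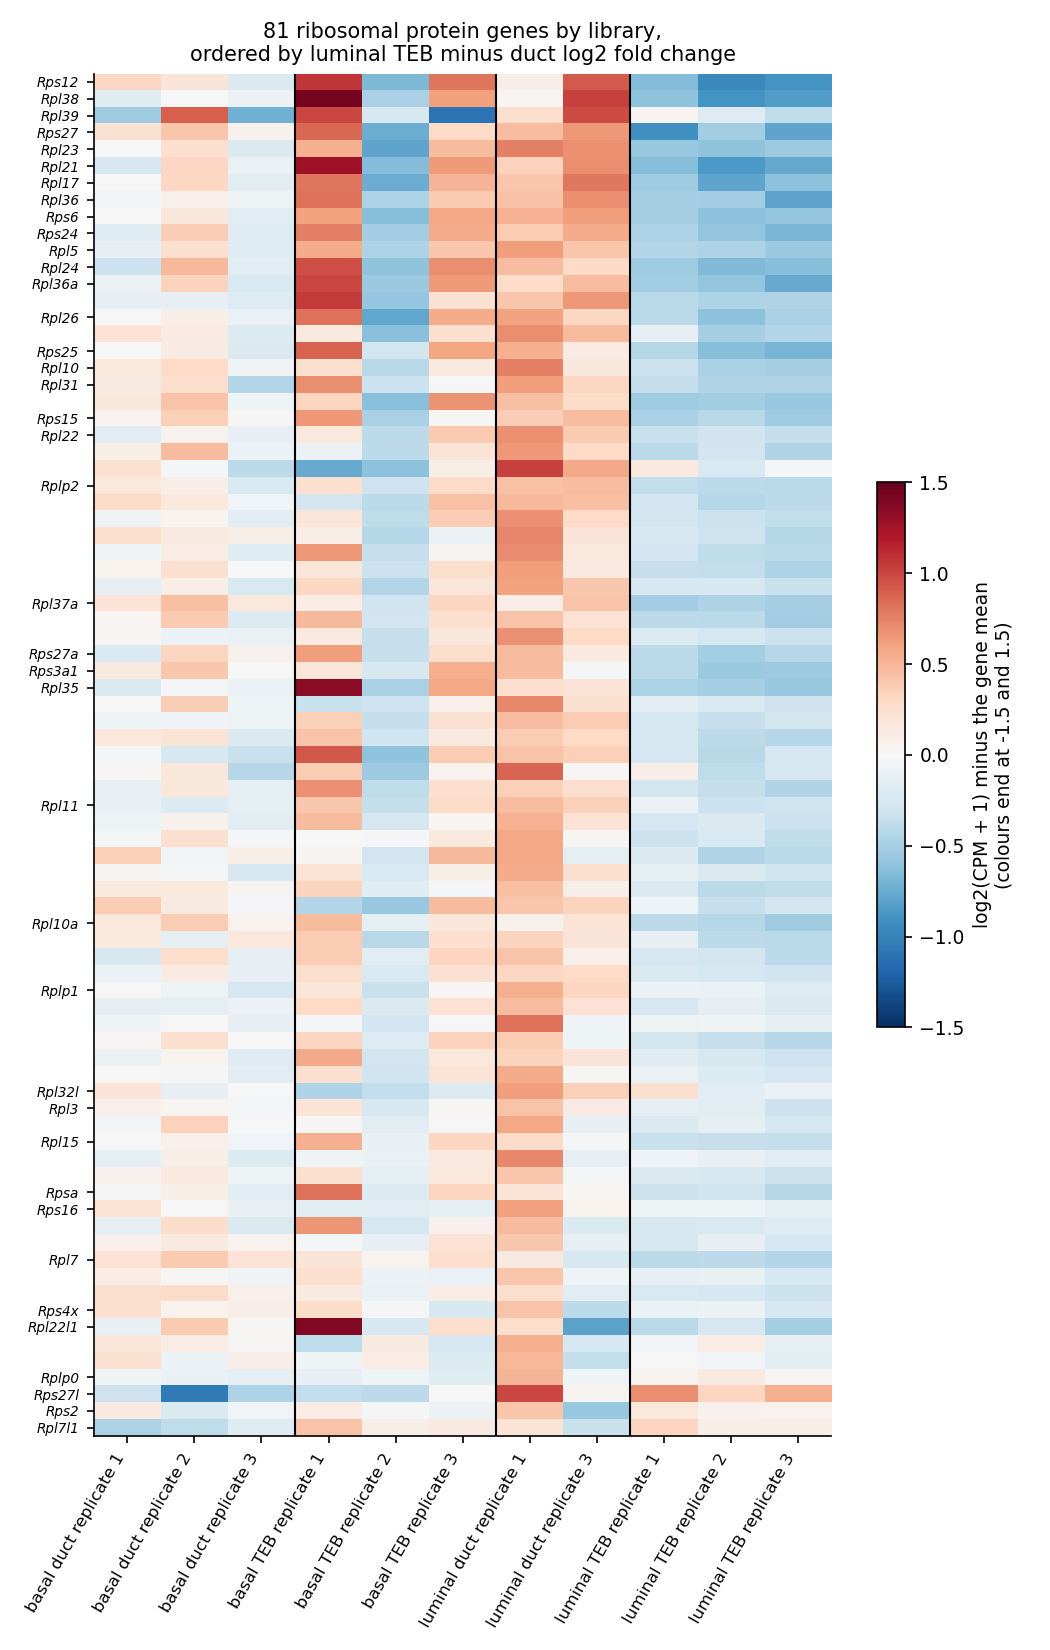
log2(CPM + 1) minus the gene's mean for 81 ribosomal protein genes (rows, ordered by the luminal TEB minus duct log2 fold change, labelled where the text describes the gene) in the 11 libraries (columns). The luminal TEB libraries lie below the gene means nearly throughout, and basal TEB replicate 2 lies below replicates 1 and 3 for most genes.

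The difference between the changes of basal and luminal cells (basal TEB minus duct, less luminal TEB minus duct) was above 0 for 79 of 81 genes, with a median of 0.76 beside -0.13 over all genes (0.18 when libraries were scaled by total counts only). No gene was called by edgeR's quasi-likelihood test (0.443% of all genes) or by limma voom (0.547%). Above 0 at an unadjusted p under 0.05 were 46 (6.71% of all genes), and DESeq2 called 14 (1.74%) and the likelihood ratio test 8 (1.5%). The lowest FDR belonged to Rpl36 (1.54 ± 0.390, FDR 0.123, edgeR) and Rpl38 (2.24 ± 0.584, FDR 0.131, edgeR). This contrast shares all 4 groups with the other comparisons and is no independent evidence beside them. Without basal TEB replicate 2 it gave 21 calls above 0 (0.73% of all genes in that fit), and without luminal duct replicate 1 it gave 1 (1.3%). In luminal cells 20 genes were called lower (1.11% of all genes in that fit) when basal TEB replicate 2, which enters there only through the estimate of the spread, the filter and the scaling, was left out. The luminal count was 3 without basal TEB replicate 1 (1.26%), 1 without basal TEB replicate 3 (0.523%), 4 without luminal duct replicate 1 (2.92%) and 2 without luminal duct replicate 3 (0.541%). Where a luminal duct library was left out, here and below, the lone sample of that group was assumed to vary like the other groups.

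In ducts, most ribosomal protein genes had a lower level in basal than in luminal cells, and Rps27l alone passed the threshold. The log2 fold change (basal minus luminal) was below 0 for 75 of 81, with a median of -0.34 beside 0.08 over all genes, and 1 was called lower where 9.71% of all genes were. At an unadjusted p under 0.05, 14 were lower, against 15.8% of all genes. Every basal duct library lay below both luminal duct libraries for 39 (21.2% of all genes). Rps27l, a target of p53 as well as a ribosomal protein, stood at 56.5, 33.3 and 50.7 CPM in basal duct and at 142 and 72.7 CPM in luminal duct (-1.20 ± 0.295, FDR 0.0118, edgeR). The groups did not overlap, but the 2 luminal duct libraries were far apart. Without luminal duct replicate 1 its log2 fold change was -0.63 (FDR 0.165, edgeR), and the count of genes called was 0. With scaling by total counts only it was -1.11 (FDR 0.0870, edgeR), and in a fit of the groups compared only -1.18 (FDR 0.0684). The count of genes called was 4 without luminal duct replicate 3 (7.48% of all genes lower in that fit) and 3, 12 and 2 without basal TEB replicates 1, 2 and 3 (12.4%, 9.81% and 9.62%).

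In TEBs the order was the other way, except with scaling by total counts only (median -0.061), and 19 of 81 genes (12 of the large and 7 of the small subunit) were higher in basal than in luminal cells, where 13.2% of all genes were called higher. The median log2 fold change was 0.43 (0.48 for the large and 0.38 for the small subunit; 0.04 over all genes tested), and 73 of 81 were above 0. Every basal TEB library lay above every luminal TEB library for 22 genes (22.6% of all genes). The 19 are Rps25, Rpl38, Rps12, Rpl21, Rpl36, Rpl36a, Rpl35, Rpl10a, Rpl15, Rpl7, Rpl24, Rps24, Rps27, Rps6, Rpl17, Rpsa, Rpl37a, Rps3a1 and Rpl5. Rps25 had the lowest FDR (1.07 ± 0.260, FDR 0.00969, edgeR).

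The 6 with the largest change follow, in CPM for basal TEB replicates 1, 2 and 3 and then luminal TEB replicates 1, 2 and 3. Rpl38, a large subunit protein known for its part in the translation of Hox mRNAs, was at 163, 42.2 and 92.0 against 38.9, 31.6 and 32.8 CPM (1.52 ± 0.399, FDR 0.0146, edgeR). Rps12 was at 146, 43.1 and 121 against 43.5, 34.8 and 36.6 CPM (1.43 ± 0.378, FDR 0.0150, edgeR). For Rpl38 all basal TEB libraries were above the luminal ones, whereas for Rps12 replicate 2 of basal TEB fell within them.

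Rpl21 was at 339, 88.4 and 218 against 89.2, 75.9 and 81.6 CPM (1.39 ± 0.368, FDR 0.0155, edgeR). Rpl35, which sits near the exit of the peptide tunnel, was at 427, 119 and 249 against 120, 118 and 112 CPM (1.18 ± 0.335, FDR 0.0213, edgeR). In both, basal TEB replicate 2 lay just under the highest luminal TEB library and the other 2 basal libraries well above. Rpl36a was at 222, 74.7 and 171 against 76.5, 72.9 and 64.8 CPM (1.13 ± 0.318, FDR 0.0210, edgeR). Rpl24, which forms a bridge between the subunits, was at 150, 49.8 and 124 against 52.3, 48.0 and 48.7 CPM (1.12 ± 0.341, FDR 0.0310, edgeR). The same order of the basal TEB libraries, replicate 1 above replicate 3 above replicate 2, held for all 6.

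Over the 81 genes, basal TEB replicate 1 was above every luminal TEB library for 70, replicate 3 for 69 and replicate 2 for 25. The share of all genes was not computed for single libraries, so these counts only compare the basal TEB libraries with each other. The count of 19 rested on these libraries: leaving out basal TEB replicate 1 gave 1 call (12.8% of all genes were called higher in that fit), replicate 2 gave 41 (12.4%) and replicate 3 gave 4 (11.1%). Leaving out luminal TEB replicate 1 gave 5 (9.28%), replicate 2 gave 1 (9.79%) and replicate 3 gave 1 (9.24%), and basal duct replicate 1 or 3 gave 12 (12.4%). Without the 2 libraries with the most mitochondrial counts 5 were called, all higher (6.02% against 15.2% of all genes). Scaling by total counts only gave 2, of which 1 was higher (1.23% against 7.94%) and 1 lower (1.23% against 13.4%). With the replicate number as a block 9 were higher (11.1% against 11.7%). With total counts only and with the block, the family was called higher less often than all genes. The same held without basal TEB replicate 1 or 3 and without any single luminal TEB library. It was called more often without basal TEB replicate 2 (50.6% against 12.4%). It was also called more often without basal duct replicate 1, 2 or 3 (14.8%, 24.7% and 14.8% against 12.4%, 13.3% and 12.4%). The fibroblast markers summed to 176 to 285 CPM in basal TEB and 7.29 to 29.4 CPM in luminal TEB, and their part was not tested. Of the 19 genes, 10 shared over 50% of their stretches with other genes (median 53.7%), against 13 of the 62 not called (median 29.0%), and the part of shared reads in the result was not tested. When the counts of same-named copies were added to each gene, an alternative chosen after the data were seen, 17 were called (21% against 13.2% of all genes). Rps12, Rps27 and Rpl17, which are among the 19, have most of their counts on copies. With copies added, Rps12 (1.38, FDR 0.00533, edgeR) and Rps27 (0.72, FDR 0.0480, edgeR) were still called. Rpl17 (0.40, FDR 0.199, edgeR) and Rpl15 (0.48, FDR 0.0838, edgeR) were not. Both TEB groups also serve in the comparisons with ducts.

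**Figure D5:**
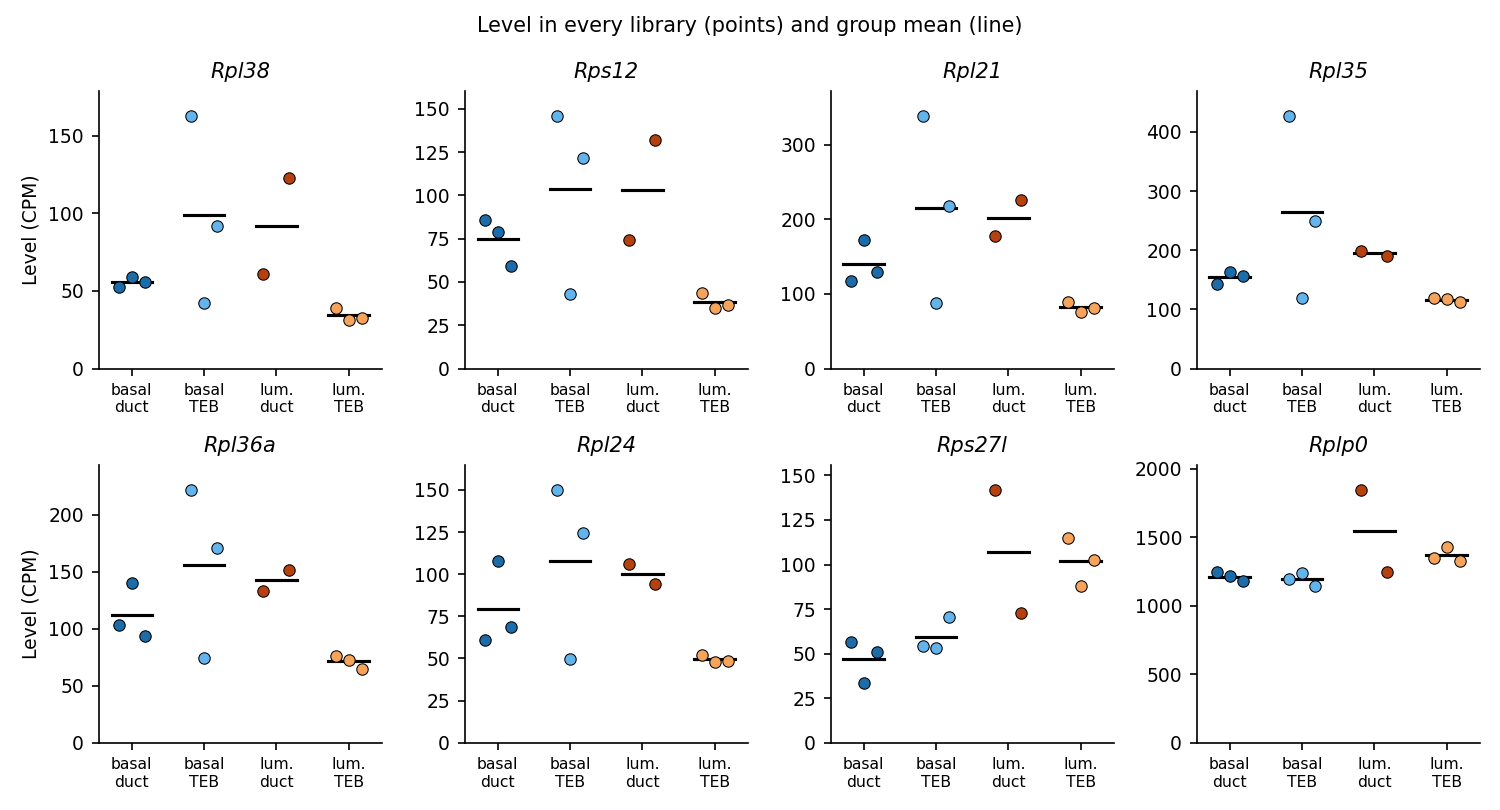
CPM of 8 ribosomal protein genes in each library, by group, with a line at each group mean. Rpl38, Rps12, Rpl21, Rpl35, Rpl36a and Rpl24 are highest in basal TEB replicate 1 among the TEB libraries, Rps27l is higher in luminal than in basal duct libraries, and Rplp0 lies between 1147 and 1427 CPM in 10 of 11 libraries.

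Rps27l also went the other way from the family in TEBs, at 54.4, 53.3 and 70.5 CPM in basal TEB and 115, 88.2 and 103 CPM in luminal TEB (-0.78 ± 0.269, FDR 0.0535, edgeR), with no overlap between the groups. Its parent Rps27 was among the 19, at 67.9, 21.6 and 45.3 against 19.0, 25.4 and 21.0 CPM (1.04 ± 0.334, FDR 0.0394, edgeR). Rplp0, Rps16 and Rpl32l were the other 3 with every basal TEB library below every luminal TEB library, at -0.20, -0.08 and -0.36 and none called. These 4 genes are 4.94% of the 81, against 27.2% of all genes.

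Genes that act around the ribosome had medians nearer to 0 in luminal cells than its proteins. The 78 mitochondrial ribosomal protein genes are encoded in the nucleus for the separate ribosome of mitochondria. In luminal TEBs against ducts 0 of them were called higher and 1 lower, where 0.639% and 0.771% of all genes were. Their median log2 fold change was -0.03. Of 30 ribosome biogenesis factors none was called by edgeR (1.41% of all genes), with a median of 0.00. At an unadjusted p under 0.05 in either direction there were 3, where 16.6% of all genes were. Among the 30, Heatr1, which acts in processing of the small subunit's RNA, had the lowest FDR (1.01, FDR 0.102, edgeR). None of 11 genes of RNA polymerase I and its factors was called (median 0.20). None was called of 11 genes of mTOR signalling and TOP control, 10 of the Myc network or 9 of p53 and its targets. Their medians were -0.01, -0.10 and -0.10. At an unadjusted p under 0.05 the lists held 2, 2, 2 and 1 in this order, beside the same 16.6% of all genes.

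Nearer to the ribosomal proteins were the 16 translation factors and other genes with TOP mRNAs, with none called and a median of -0.30 (Eif3e -0.57, FDR 0.159, edgeR). At an unadjusted p under 0.05, 3 of them were lower (8.22% of all genes). The 31 ribosomal protein pseudogenes tested had a median of -0.71, with none called and 15 lower at an unadjusted p under 0.05 (8.22% of all genes). Among the 11 genes mutated in Diamond-Blackfan anaemia, which are all members of the family, 10 were lower at an unadjusted p under 0.05 and none was called, with a median of -0.70, beside 59 of the 81 genes of the family and 8.22% of all genes.

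The 13 proliferation genes had the opposite sign to the ribosomal proteins in luminal cells. All 13 were above 0 and the median was 1.58. All 13 were higher at an unadjusted p under 0.05 (8.38% of all genes), and 3 were called higher by edgeR (0.639%). The 3 were Rrm2, a subunit of the enzyme that makes deoxyribonucleotides (1.77, FDR 0.0220, edgeR), and the replication helicase subunits Mcm3 and Mcm5 (1.58 and 1.45). In basal cells 1 of the 13 was called higher in TEBs (0.167% of all genes), with a median of 0.73. It was Birc5, which acts in cell division (1.48, FDR 0.0415, edgeR). At an unadjusted p under 0.05, 7 of the 13 were higher in basal TEBs (6.62% of all genes). There the 30 biogenesis factors had a median of 0.27 and the 78 mitochondrial ribosomal proteins one of 0.31. None of either list was called by edgeR (1.32% of all genes). At an unadjusted p under 0.05, 6 and 14 were higher, where 6.62% of all genes were. Myc had a log2 fold change of -1.01 in basal TEBs (FDR 0.0758, edgeR).

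Between basal and luminal cells of TEBs, 7 of 30 biogenesis factors, 5 of 16 translation factors and 7 of 31 ribosomal protein pseudogenes were higher in basal cells and none was lower, where 13.2% of all genes were higher, with medians of 0.32, 0.16 and 0.60. Of the 78 mitochondrial ribosomal proteins 2 were higher and 3 lower (median -0.06), where 13.2% and 11.8% of all genes were. In ducts, 11 of 78 mitochondrial ribosomal proteins were lower in basal cells and 0 higher, with a median of -0.35, a share close to the 9.71% of all genes called lower.

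By the gene length deposited with the counts, genes up to the median length of 684 bases (n = 41) and longer ones (n = 40) had medians of -0.74 and -0.64 in luminal cells. Between basal and luminal TEB cells the medians were 0.45 and 0.41. Over the 81 genes the Spearman correlation of length with the log2 fold change was 0.20 in luminal cells, 0.29 between basal and luminal duct cells, -0.04 in basal cells and -0.02 between basal and luminal TEB cells, a description over genes of the same libraries. Among all genes tested, those up to 684 bases (n = 1076) had a median of -0.27 in luminal cells and longer ones (n = 16294) one of 0.06. The 1076 include the 41 ribosomal protein genes of that length, so the medians of -0.27 and -0.74 are not from separate genes. The part of length was not tested.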

How the data were processed

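The authors aligned paired-end reads of 80 bases from polyA RNA (TruSeq, from about 10 ng) to mm10 and counted them by Entrez gene with featureCounts of Rsubread and its inbuilt RefSeq annotation. The deposited values are whole, unnormalized counts, and each library's own table equalled its column in the series table, with 0 columns unused. How reads matching several genes were counted is not given in the sources used here. In R 4.3.3, edgeR 4.0.16 kept 17370 genes (filterByExpr, minimum count 10, minimum total 15), scaled libraries by TMM and fitted 1 quasi-likelihood model over 4 groups, with Benjamini-Hochberg adjustment over all genes. SEs were taken as |log2 fold change| over the root of F. CPM are TMM-scaled and log2 CPM used a prior count of 2. The common biological coefficient of variation was 0.704. Of 27179 identifiers, 93.0% had a symbol.

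Members and gene lists were chosen with earlier results of these data known. Named are paralogs and their parents, stalk and p53-linked proteins, up to 6 called genes with the largest change in each direction per comparison (mean log2 CPM of at least 4) or the 2 lowest p where none was called, the 3 highest and 3 lowest levels, and genes failing the filter. Some results under this rule are not reported here. Lists are described by counts and medians. Alternatives used limma 3.58.1 and DESeq2 1.42.0. Scripts were tested on simulated counts. The number of libraries and their depth limit precision.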

Additional observations from a re-analysis of the deposited data

How the results depend on the processing

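Medians of the family moved by less than the spread between replicates in 122 of 125 alternative values; the others came with scaling by total counts only, where the median of all genes moved too. Under it the luminal TEB minus duct median was -0.32 (all genes 0.42), that of basal minus luminal TEB cells -0.061 (all genes -0.35) and that of the difference between changes 0.18. Relative to the median of all genes, luminal TEBs stayed at -0.74 and TEB basal minus luminal at 0.29 against 0.39. In luminal cells, with shares of all genes called lower, DESeq2 called 42 lower (4.28%). The likelihood ratio test called 25 (3.15%) and limma voom 8 (1.28%). With only the groups compared 29 were called (1.89%), without a filter 2 (0.985%) and at a mean CPM of at least 1 there was 1 (1.31%). In ducts, with shares likewise of all genes called lower, DESeq2 called 9 (12.3%), the likelihood ratio test 3 (12.5%) and limma voom 8 (12.9%). DESeq2 size factors gave 2 (10.1%), a mean CPM of at least 1 gave 2 (12.4%) and total counts gave 0 (6.04%). With only the groups compared there were 0 (7.04%), and at an FDR of 0.01 there were 0. In TEBs, scaling by total counts gave 1 gene higher (7.94% of all genes) and 1 lower (13.4%). DESeq2 called 30 in either direction, 37% of the family against 31% of all genes. Without the 2 libraries highest in mitochondrial counts 5 were higher (15.2% of all genes), and at an FDR of 0.01 there was 1. For the difference between changes, DESeq2 called 14 higher (1.74% of all genes) and the likelihood ratio test 8 (1.5%). Leaving out 1 library at a time gave 0 to 1 calls in basal cells, 0 to 20 in luminal cells, 0 to 12 in ducts, 1 to 41 in TEBs and 0 to 21 for the difference between changes.

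Mean shares of counts were 2.95% in basal duct, 3.17% in basal TEB and 2.75% in luminal TEB outside mitochondrial genes, and 3.08% and 2.98% in basal duct and luminal TEB with pseudogenes added. The sign in luminal cells changed by total counts for Rpl22l1 (0.11), Rplp0 (0.18) and Rps27l (0.26) and without the 2 mitochondrial-rich libraries for Rpl7l1 (-0.0054). With 1 library left out, values there ran from -0.66 to 0.43 for Rpl22l1, from -0.022 to 0.52 for Rpl7l1, from -0.43 to 0.14 for Rplp0 and from -0.48 to 0.49 for Rps27l. The cause of these changes was not tested. The small basal median was -0.11 by total counts and -0.02 without the 2 libraries.

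Whether the replicate numbers shared between groups mark a shared pool or day is not given, and the libraries were not treated as paired. Over 15 same-number pairs deviations correlated from -0.07 to 0.16 (median 0.07), with 4 over 0.1. The median over 30 pairs of different numbers was -0.03. Of 11 libraries 7 correlated best with their own number, a hint from the data and not from the design. Deviations from means of 2 or 3 libraries depend on each other, so these correlations cannot decide whether libraries were paired. With the number as a block, 10 genes were called in TEBs. Of these 9 were higher (11.1% of the family against 11.7% of all genes) and 1 lower (1.23% against 11.5%). In that fit Rps27l in luminal cells was at 0.087.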
